A study of Mus musculus with 2 samples.

Results

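High endothelial venule (HEV) cells are described here from mandibular lymph nodes of mice that had a subarachnoid haemorrhage (SAH) or a sham operation 24 h earlier. They were selected on measured values. A barcode was kept when it had 500 or more detected genes and no more than 10% mitochondrial UMIs, a UMI being 1 captured RNA molecule. A kept barcode counted as an HEV cell when it held 0 UMIs of Prox1, at least 1 UMI of Pecam1, and at least 2 UMIs of Fut7 and Chst4 together. These conditions gave 1578 HEV cells of 22611 kept barcodes, 754 from sham and 824 from SAH animals. The nodes of 20 mice were pooled for each library. The suspensions were depleted of cells bearing CD45 and enriched on beads for CD31 or podoplanin. The labels name lymphatic endothelium as the cell type, whereas HEV cells are blood endothelium. Strain, sex and age are not given in the sources used here. There is 1 library in each group, so every comparison is between these pools, without a replicate check and without a test. Intervals in brackets are exact at the 95% level and reflect counting error alone.

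HEVs are the venules through which naive lymphocytes leave the blood and enter a lymph node. Their plump endothelial cells carry sialomucins such as GlyCAM-1 and CD34, whose sulphated and fucosylated sugars bind L-selectin on rolling lymphocytes, and they present the chemokine CCL21, which arrests cells bearing CCR7. Their differentiated state is known to depend on lymphotoxin beta receptor signalling through the alternative NF-kB pathway and on lymph flow into the node.

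The label was checked on the 4 HEV markers that the rule did not use. Levels are in CPM, the UMIs of a gene per 1000000 UMIs summed over the cells of a class in 1 library. Glycam1 encodes the secreted scaffold of L-selectin ligands (GRCm38 chr15:103562759-103565081, minus strand), and stood at 47387 CPM in sham and 47049 CPM in SAH HEV cells, against 695 and 786 CPM in other blood endothelium. Ackr1, an atypical chemokine receptor gene of venules, stood at 744 and 627 CPM in HEV cells and at 8.22 and 8.69 CPM in other blood endothelium. Ubd, which encodes the ubiquitin-like protein FAT10, stood at 1428 and 2178 CPM, against 75.6 and 116 CPM. Serpina1e, an alpha-1-antitrypsin gene, stood at 964 and 871 CPM, against 23.4 and 26.9 CPM. All 4 markers were higher in the chosen cells in both libraries. Other blood endothelium was cut on Ackr1, so its low Ackr1 follows from that cut and is no check of the label. In all blood endothelium with 0 UMIs of Fut7 and Chst4, Ackr1 stood at 42 and 25.6 CPM. Such differences from other cells describe the choice of cells and are no test of it.

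The genes of the rule stood at 456 and 595 CPM for Fut7, the fucosyltransferase of L-selectin ligands, and at 177 and 236 CPM for Chst4, the sulphotransferase of the same ligands. Both were present together in 427 sham and 519 SAH HEV cells. Cells just inside the threshold, with 2 UMIs, held Glycam1 at 12040 CPM in sham and 10800 CPM in SAH. Cells just outside it, with 1 UMI, numbered 328 and 421 and held Glycam1 at 2443 and 3567 CPM. A further 49 sham and 85 SAH barcodes met the Fut7 and Chst4 condition but carried Prox1, the master regulator of lymphatic identity, and were left out.

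The 15 genes that stood highest over other blood endothelium in both libraries describe the same identity. Besides Ackr1, Glycam1, Serpina1e and Ubd they were Bpifb5, Ptgds, Oit1, Selp, Nxph1, Pglyrp1, Gcnt1, Vwf, Ehd3, Chst1 and Spint2. The ratio of HEV to other blood endothelium was 90.5 and 72.1 for Ackr1, 68.2 and 59.8 for Glycam1 and 17.8 and 17.8 for Gcnt1, which branches the O-glycans of L-selectin ligands. Several of these genes are shared with venules. Venular cells, taken here as blood endothelium with 0 UMIs of Fut7 and Chst4 and at least 2 UMIs of Ackr1 and Selp together, numbered 214 and 132. The ratio of HEV to venular cells was 1.08 and 1.03 for Ackr1, 0.3604 and 0.319 for Selp (P-selectin) and 0.364 and 0.437 for Vwf (von Willebrand factor), against 10.3 and 18.1 for Glycam1. Venular cells were chosen by Ackr1 and Selp, so the ratios of those genes describe that choice. Other blood endothelium was chosen for little of both, so the ratios to it, and the ranks, of Ackr1 and Selp describe that choice too. In all blood endothelium with 0 UMIs of Fut7 and Chst4, Ackr1 stood at 42 and 25.6 CPM and Selp at 11 and 6.15 CPM.

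**Figure D1:**
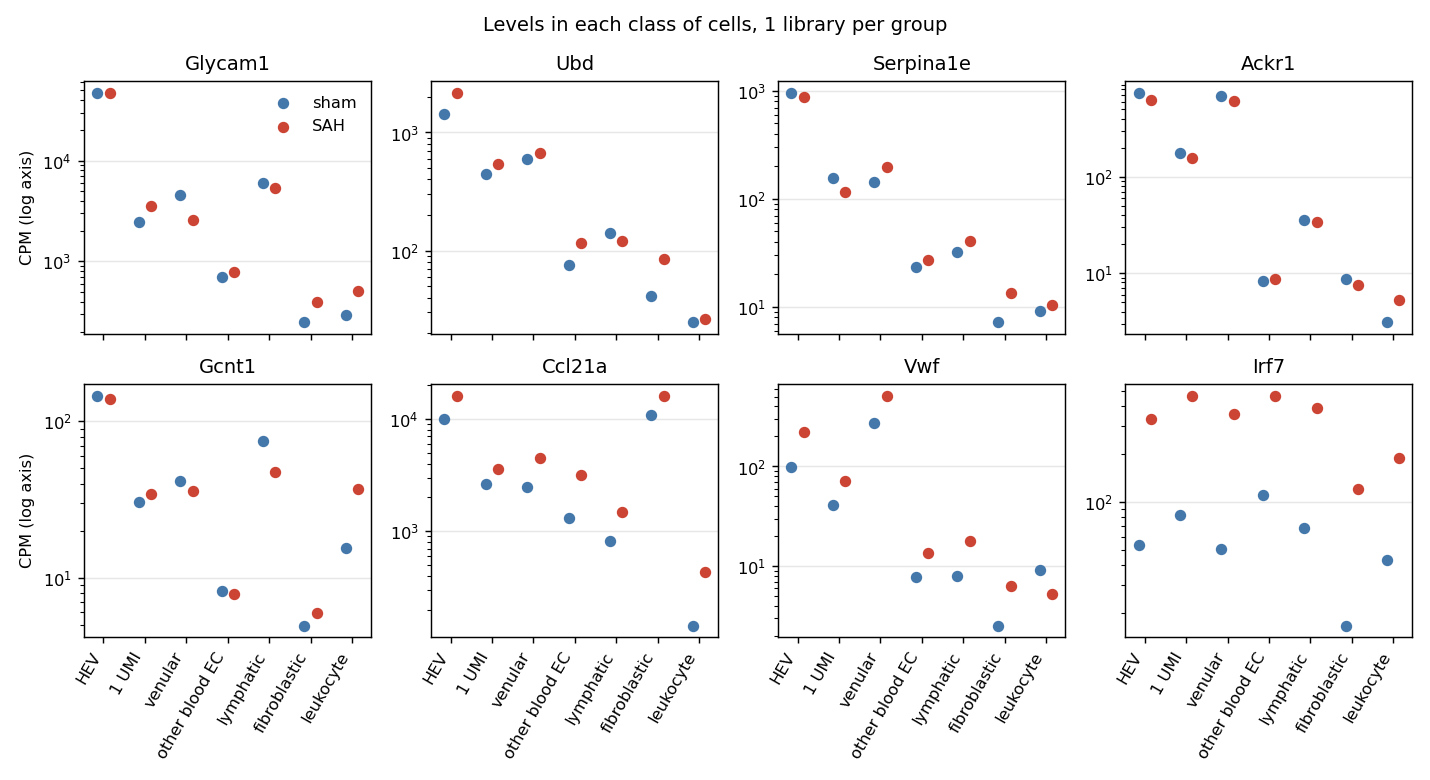
Levels in CPM (log axes) of 8 genes in HEV cells and 6 other classes of cells, with 1 point per library (blue sham, red SAH). Glycam1, Ubd, Serpina1e, Ackr1 and Gcnt1 are highest in HEV cells in both libraries, Ccl21a is close to its fibroblastic level (10745 and 15844 CPM there), Vwf is highest in venular cells, and Irf7 is higher in SAH in each class.

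Before cells were chosen the libraries held 13952 and 13766 barcodes with 72860197 and 78497486 UMIs. HEV cells had a median of 9661 UMIs in sham and 9378 in SAH, against 4084 and 4331 in other blood endothelium, and 0 HEV barcodes occurred in both libraries. A doublet caller marked 35 sham (4.64%) and 69 SAH (8.37%) HEV barcodes, which were kept. Markers of other cell types were detected in HEV cells. The 12 fibroblastic markers summed to 527 and 1043 CPM in HEV cells and to 23900 and 23930 CPM in fibroblastic cells. The 10 mural markers summed to 599 and 409.8 CPM, led by Tagln, the 8 measured salivary markers to 93.8 and 209.8 CPM, and the 14 lymphatic markers to 192 and 220.1 CPM with Prox1 at 0 by the rule. The 8 measured B cell markers summed to 661 and 673 CPM, led by Cd74, the 10 measured T and NK cell markers to 38.6 and 20.4 CPM, and the 12 myeloid markers to 33.9 and 91.6 CPM, with Itgam, Csf1r, Adgre1 and Csf3r at 0 in sham. The 9 platelet and red cell markers summed to 656 and 626 CPM. Of other vessel types, the 14 capillary markers summed to 2891 and 3256 CPM, the 12 arterial markers to 276 and 347 CPM and the 10 venous markers to 1946 and 1811 CPM, the last led by Ackr1, an HEV gene here.

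The share of HEV cells in blood endothelium depended on how they were chosen. By the rule used here they were 754 of 6741 Prox1-negative, Pecam1-positive cells in sham, or 11.19% [10.44, 11.96], and 824 of 6868 in SAH, or 12% [11.24, 12.79], with Clopper-Pearson intervals that overlap. The shares were 4.17% and 6.07% in cells thinned to 2000 UMIs and 4.78% and 5.74% with Chst4 alone in the rule, and at 5% or fewer mitochondrial UMIs their order turned, to 11.41% and 10.77%. Bead capture sets which cells enter a library, so these are shares of the captured suspension. In sums of cells, fewer cells that express a gene and less RNA per cell cannot be told apart, and shares of positive cells are given where this matters.

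Between the libraries, 5756 genes reached 20 CPM in at least 1 of the HEV sums, and their median log2 fold, SAH over sham, was -0.06. Of these, 314 (5.46%) were at least 1.5-fold higher in SAH and 231 (4.01%) at least 1.5-fold lower. A size factor from the median ratio over genes moved all log2 folds up by 0.07 and changed that split to 438 higher and 142 lower. Differences of 2-fold or more were mostly upward, with 106 genes higher and 15 lower. The counts of each list that follows are set against 5.46% and 4.01%.

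The scaffolds of the L-selectin ligands stood at similar levels in both libraries, apart from Madcam1. Of 6 genes past the filter, 1 was at least 1.5-fold higher and 0 at least 1.5-fold lower, with a median log2 fold of 0.11. Glycam1 differed by a factor of 0.993 [0.988, 0.997]. Cd34 stood at 484 CPM in sham and 559 CPM in SAH, and Podxl, the podocalyxin gene, at 104 and 105 CPM. Madcam1 encodes a scaffold that also binds the integrin alpha4beta7 and is typical of mucosal HEVs (GRCm38 chr10:79664559-79668537, plus strand). It stood at 22.3 CPM in sham and 44.4 CPM in SAH, a factor of 1.99 [1.66, 2.399], while the factor was 0.361 in venular cells and 1.06 in other blood endothelium. Its UMIs lay in 36 of 754 sham and 80 of 824 SAH cells, so most HEV cells of either library showed none. With each cell thinned to an equal number of UMIs, Madcam1 was seen in 2.53% of sham and 4.66% of SAH HEV cells. In lymphatic cells, whose marker list holds Madcam1 too, the thinned shares were higher, at 13.95% in sham and 12.61% in SAH. The part of lymphatic RNA in the Madcam1 difference was not tested.

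The enzymes that build the sugars and sulphates of the ligands did not share that difference. Of 17 genes past the filter, 0 were at least 1.5-fold higher and 1 at least 1.5-fold lower, with a median log2 fold of -0.13. Gcnt1 stood at 146 CPM in sham and 139.8 CPM in SAH, a factor of 0.958 [0.882, 1.04]. Chst2, a second sulphotransferase gene of these ligands, stood at 196 and 207 CPM, and the sialyltransferase gene St3gal6 at 422 and 314 CPM, a factor of 0.746 [0.708, 0.785]. Galnt1, which starts O-glycans, had a factor of 0.713. The gene past 1.5-fold was Gmds, which acts in the synthesis of GDP-fucose, at 44.8 and 29.7 CPM, a factor of 0.663 [0.5604, 0.783]. Its log2 fold of -0.59 lay just past the line and was -0.53 with the median-ratio factor. Fut7 and Chst4 had factors of 1.304 and 1.33, which the rule used and which are given as a description.

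Homing chemokines differed in both directions. Of 12 genes past the filter, 6 were at least 1.5-fold higher and 4 at least 1.5-fold lower, with a median log2 fold of 0.41. Ccl21a, the CCR7 ligand of HEVs (GRCm38 chr4:42772860-42773993, minus strand), stood at 9986 CPM in sham and 16052 CPM in SAH, a factor of 1.61 [1.59, 1.62]. Ccl21a was higher in SAH in the other classes too. Leukocytes, which are not known to make it, held 145 and 435 CPM and other blood endothelium 1303 and 3191 CPM. With each cell thinned to 2000 UMIs, Ccl21a was seen in 78.7% and 87.5% of HEV cells and in 19.2% and 70.2% of leukocytes, the latter from a median of 2407 and 2455 UMIs before thinning; the unthinned shares in HEV cells were 87.9% and 97.8%. The part of free RNA in the difference was not tested. Ccl21a has near-identical copies in the mouse genome, so its count depends on how reads were shared among them.

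Ccl19, Cxcl12 and Cxcl13 are made mainly by reticular stromal cells of the node, and each was higher in SAH HEV cells. Ccl19, the other CCR7 ligand, stood at 24.8 CPM in sham and 95.95 CPM in SAH, against 2055 and 2699 CPM in fibroblastic cells. Cxcl12 stood at 234 and 502 CPM, against 7379 and 6599 CPM in fibroblastic cells, and Cxcl13, which attracts B cells, at 62.7 and 169 CPM, against 1795 and 3764 CPM. The fibroblastic marker list, which holds Ccl19 and Cxcl13 themselves, had 4 higher and 1 lower of 7 and summed to 527 and 1043 CPM, with Dcn at 193 and 527 CPM and Col1a1 at 75.5 and 46.5 CPM. The part of fibroblastic RNA in these 3 differences was not tested. In the 587 sham and 537 SAH HEV cells without markers of leukocytes, fibroblastic or mural cells, the log2 fold of Cxcl13 was 2.88 in place of 1.43. With Chst4 alone in the rule that of Ccl19 was 2.58 in place of 1.95, and it was 0.87 when the rule was applied to cells thinned to 2000 UMIs, which leaves 253 sham and 375 SAH HEV cells. Log2 folds in thinned cells below refer to these.

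The CXCR3 ligands, which attract activated T cells, were higher in SAH in a minority of HEV cells. Cxcl9 stood at 60.9 CPM in sham and 318 CPM in SAH, a factor of 5.22 [4.74, 5.77], against 2.68 in other blood endothelium. It was seen in 116 and 238 cells, and the 10 highest cells held 55.8% and 49.3% of its UMIs. Cxcl10 stood at 69.3 and 189.8 CPM, a factor of 2.74 [2.48, 3.02], against 1.23 in other blood endothelium and 0.386 in venular cells. Both sums thus lean on few cells, and the log2 folds in thinned cells were 1.01 for Cxcl9 in place of 2.39 and 0.28 for Cxcl10 in place of 1.45.

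The 4 lower genes of this list were Ccl2, Ccl7, Ccl20 and the scavenging receptor gene Ackr3. Ccl2, a monocyte attractant, stood at 30.7 CPM in sham and 4.23 CPM in SAH, and the related Ccl7 at 22.5 and 2.98 CPM. Ccl20, the CCR6 ligand, stood at 30.6 and 6.34 CPM, with 187 of its 243 sham UMIs in 1 cell. These 3 differences were smaller or absent in HEV cells without markers of leukocytes, fibroblastic or mural cells. There the log2 fold of Ccl2 was -0.76 in place of -2.86, that of Ccl7 was 0.069 in place of -2.92, and that of Ccl20 was -0.53 in place of -2.27. Ackr3 stood at 21.1 and 13.2 CPM.

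Surface, secreted and transcription genes of HEVs differed in both directions, in larger shares than the 5.46% and 4.01% of all genes past the filter. Of 15 genes past the filter, 3 were at least 1.5-fold higher and 2 at least 1.5-fold lower, with a median log2 fold of 0.19. Ubd was higher by a factor of 1.53 [1.49, 1.56] and was seen in 92.6% and 95.02% of cells. Other blood endothelium had nearly the same factor for Ubd, 1.54, and the log2 fold in HEV cells came under 1.5-fold, at 0.57 with at most 5% mitochondrial UMIs and at 0.58 with Chst4 alone in the rule. Apoe, the lipid carrier, stood at 3436 CPM in sham and 6247 CPM in SAH, a factor of 1.82 against 1.94 in other blood endothelium. Gpx3, a secreted peroxidase gene, stood at 7.55 and 42.1 CPM, and at 319 and 774 CPM in fibroblastic cells, with a log2 fold of 1.77 without called doublets in place of 2.48. The part of fibroblastic RNA in the Gpx3 difference was not tested.

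The lower genes were Ch25h and Fabp5. Ch25h, which makes 25-hydroxycholesterol, stood at 186 CPM in sham and 105 CPM in SAH, a factor of 0.565 [0.519, 0.615], and was seen in 61.4% and 45.5% of cells. In thinned cells its log2 fold was -0.54. Fabp5, a fatty acid carrier, stood at 145 and 94.7 CPM, with a log2 fold of -0.51 without called doublets. The steadier members included Ackr1 with a factor of 0.842 [0.811, 0.875], Serpina1e with 0.903 and Enpp2, the autotaxin gene, which stood at 2647 and 2860 CPM. Nkx2-3, a homeobox gene of mucosal endothelium, had 0 UMIs in both HEV sums. Taken as 3 counts over the 751 sham cells thinned to 2000 UMIs, the limit is a share of 0.3995% of cells with a UMI, which is no limit on cells that express the gene.

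Leukocyte adhesion genes other than Madcam1 stayed within 1.5-fold. Of 16 genes past the filter, 1 was at least 1.5-fold higher and 0 at least 1.5-fold lower, with a median log2 fold of 0.06. Icam1, a ligand of the integrin LFA-1, stood at 164 CPM in sham and 211 CPM in SAH, a factor of 1.28 [1.19, 1.38]. Vcam1, the ligand of VLA-4, stood at 147 and 175 CPM, Selp at 65.4 and 51.6 CPM and Sele, the E-selectin gene, at 22.3 and 19.4 CPM. Cdh5, the VE-cadherin gene of endothelial junctions, stood at 696 and 504 CPM, a factor of 0.724, and Jam2, a junctional adhesion gene, had a factor of 1.398.

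**Figure D2:**
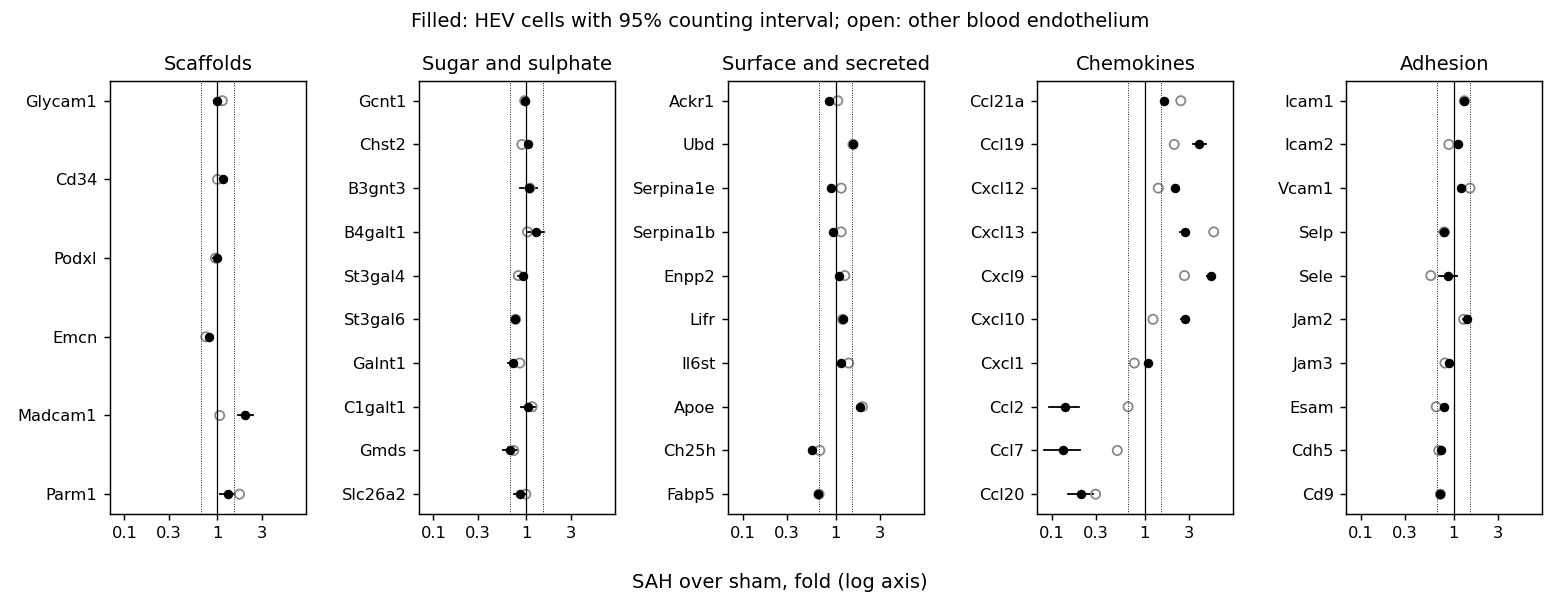
Fold, SAH over sham (log axis), of 46 HEV genes in 5 groups, for HEV cells (filled points, lines for 95% counting intervals) and other blood endothelium (open points); dotted lines mark 1.5-fold either way. Most scaffold, sugar and adhesion genes lie between the dotted lines, Madcam1 at 1.99 and 6 chemokines lie to the right, and Ccl2, Ccl7 and Ccl20 lie far to the left.

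The lymphotoxin and NF-kB pathway, which maintains HEVs, was close to level. Of 18 genes past the filter, 2 were at least 1.5-fold higher and 0 at least 1.5-fold lower, with a median log2 fold of 0.00. Ltbr, the lymphotoxin beta receptor gene, stood at 32.8 CPM in sham and 46.4 CPM in SAH, a factor of 1.41 [1.202, 1.66]. The higher genes were Map3k14, the NIK kinase of the alternative pathway, at 14.6 and 22.1 CPM, and Traf2, an adaptor of TNF receptors, at 15.1 and 26.2 CPM; the mean of single-cell values gave Map3k14 a log2 fold of 0.48. Nfkb2, the precursor of p52, stood at 75.8 and 97.3 CPM and its partner Relb at 102 and 92.97 CPM. Nfkbia, which encodes the inhibitor of the classical pathway, stood at 1613 and 1099 CPM, a factor of 0.681 [0.663, 0.7001]. The sphingosine phosphate and lysophospholipid genes, which guide lymphocytes through the HEV wall and keep it tight, had 0 higher and 0 lower of 7. Among them S1pr1, a receptor gene, stood at 369 and 349.8 CPM, and Spns2, the sphingosine phosphate exporter gene, at 154 and 123 CPM.

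Promoter sequences of Ubd and Madcam1 are shown because both genes were higher in SAH and their windows hold the kappa B-like motif GGGNNNNNCC, the kind of site that NF-kB dimers bind. Each run gives the 150 bases before the RefSeq start in the build GRCm38.p6, 5′ to 3′ on the gene's strand, with matches on either strand in capitals. They lie at chr17:37193742-37193891 on the plus strand and at chr10:79664409-79664558 on the plus strand.
Ubd: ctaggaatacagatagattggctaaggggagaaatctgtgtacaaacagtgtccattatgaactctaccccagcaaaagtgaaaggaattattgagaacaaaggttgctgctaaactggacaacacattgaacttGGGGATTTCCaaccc
Madcam1: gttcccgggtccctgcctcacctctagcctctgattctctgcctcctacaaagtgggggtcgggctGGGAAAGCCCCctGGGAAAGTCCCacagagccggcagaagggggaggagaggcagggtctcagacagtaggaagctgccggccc
Ubd holds 1 match that begins 15 bases before the start. Madcam1 holds 4 matches in overlapping pairs, which begin 84, 83, 71 and 70 bases before its start. The motif is common, with a match in 50.8% of the 32851 RefSeq windows (250 bases before to 50 after a start). It was in 3 of 5 scaffold, 10 of 14 glycosylation, 9 of 11 surface, 7 of 10 chemokine, 7 of 9 adhesion and 14 of 15 lymphotoxin pathway genes that had a window. The ETS-like motif CGGAAG was in 16.9% of all windows, and in 0 of 5, 3 of 14, 2 of 11, 0 of 10, 1 of 9 and 6 of 15 genes of the same lists. Among the 12 genes highest in SAH, the kappa B-like motif was in 9 of 10 with a window. Among the 12 lowest it was in 7 of 8. The window of Ccl21a, which was higher in SAH, held 0 matches. A match is a run of letters and not a bound site.

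Interferon-stimulated genes were higher in SAH HEV cells in most of their members. Of 34 genes past the filter, 27 were at least 1.5-fold higher and 0 at least 1.5-fold lower, with a median log2 fold of 0.88, against -0.06 over all genes past the filter. Irf7, the transcription factor that drives type I interferon responses (GRCm38 chr7:141262706-141266481, minus strand), stood at 53.9 CPM in sham and 329.6 CPM in SAH, a factor of 6.12 [5.52, 6.79]. It was seen in 248 of 754 sham and 642 of 824 SAH cells. With cells thinned to 2000 UMIs the shares were 9.99% and 41.96% in HEV cells and 8.97% and 27.7% in leukocytes. Isg15, a ubiquitin-like modifier gene, stood at 124 CPM in sham and 384 CPM in SAH, a factor of 3.101 [2.89, 3.34]. Ifit1, which binds foreign RNA, stood at 33.9 and 119 CPM, and Rsad2, which encodes the antiviral enzyme viperin, at 14.3 and 81.04 CPM, with factors of 3.51 and 5.65. Rsad2 was seen in 75 sham and 189 SAH HEV cells, and the 10 highest cells held 30.7% and 36.2% of its UMIs, so its sums lean on few cells. In thinned cells the log2 fold of Rsad2 was 4.72 in place of 2.50, while Ifit3b, Ifi44, Oasl2, Rtp4, Dhx58, Cmpk2 and Eif2ak2 came under 1.5-fold. The membrane protein gene Ifitm3, the most abundant member, stood at 3756 and 6244 CPM.

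The 7 members within 1.5-fold were Irf9, Irf1, Irf8, Ifi47, Ifitm2, Trim30a and Ddx58. Irf8, better known from leukocyte development, stood at 64.8 and 46.6 CPM, a factor of 0.719, and Ifitm2 had a factor of 0.933. The list was therefore not uniform, and Dhx58 and Eif2ak2 sat at 1.5005 and 1.51, at the line itself; in thinned cells their log2 folds were -0.19 and -0.082.

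HEV cells held less of these genes than other blood endothelium, while their folds were mostly larger. Their level was below that of other blood endothelium for 30 of 34 members in sham and 29 in SAH, and their fold was above it for 29 of 34. The median log2 fold of the 34 genes was 0.88 in HEV cells, 0.72 in venular cells and 0.69 in other blood endothelium. For Irf7 the factors in these classes were 6.12, 7.103 and 4.19, with 109.8 and 460.4 CPM in other blood endothelium. For Rsad2 they were 5.65, 2.66 and 2.08, with 147 and 306 CPM in other blood endothelium. All classes come from the same pair of libraries, and the differences between their folds were not tested.

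The interferon-gamma-induced GTPases, which act against intracellular pathogens, were higher in SAH as well. Of 12 genes past the filter, 11 were at least 1.5-fold higher and 0 at least 1.5-fold lower, with a median log2 fold of 0.88. Gbp2, a guanylate-binding protein gene, stood at 43.9 CPM in sham and 91.2 CPM in SAH, a factor of 2.08 [1.83, 2.37], and Gbp5 at 18.5 and 48.7 CPM, a factor of 2.63 [2.17, 3.21]. Iigp1, the member with the highest level, had a factor of 1.46. In thinned cells Gbp3, Gbp9, Irgm1 and Irgm2 came under 1.5-fold. In venular cells Gbp2 and Gbp5 had factors of 0.955 and 0.825, and the median log2 fold of the 12 genes was 0.38 there and 0.62 in other blood endothelium. These families contain near-identical copies, so reads may be shared among members.

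**Figure D3:**
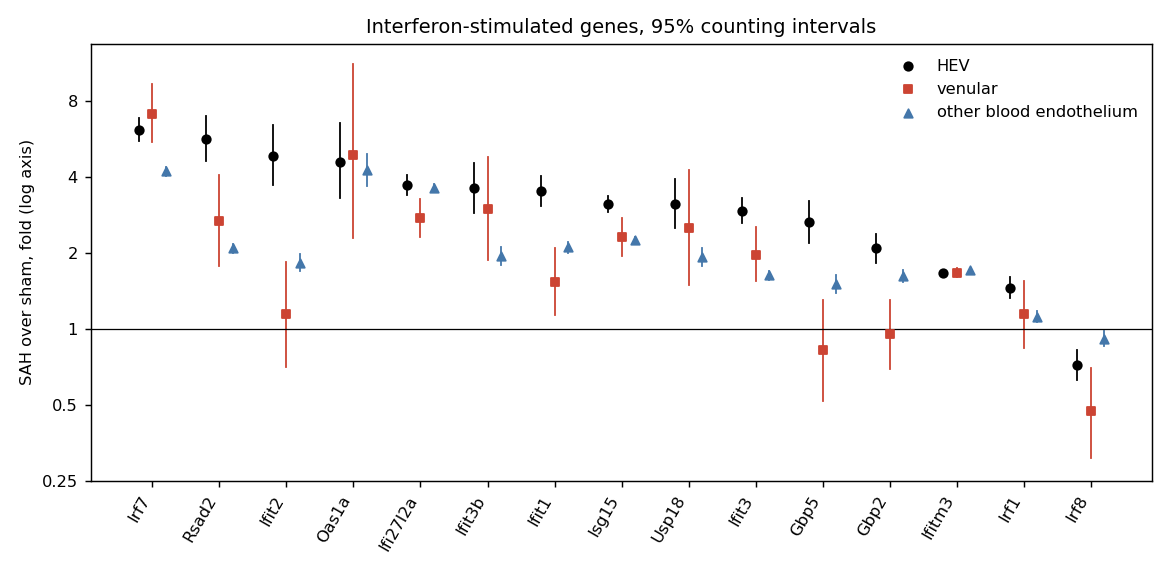
Fold, SAH over sham (log axis), of 15 interferon-stimulated genes in HEV cells (black circles), venular cells (red squares) and other blood endothelium (blue triangles), with 95% counting intervals. Irf7 is above 4-fold in each class, Ifit2 is 4.83-fold in HEV cells and 1.14-fold in venular cells, Ifitm3 lies close together in the 3 classes, and Irf8 lies below 1 in each.

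Promoters of 4 interferon-stimulated genes are shown because these genes were higher together and their windows share the interferon-response-like motif GAAA and GAAA with 2 bases of any kind between them, the core recognised by interferon regulatory factors. The runs are again the 150 bases before the RefSeq start in GRCm38.p6, with matches on either strand in capitals. Isg15 lies at chr4:156200819-156200968 on the minus strand, Ifit1 at chr19:34640739-34640888 on the plus strand, Rsad2 at chr12:26456453-26456602 on the minus strand and Igtp, a GTPase gene, at chr11:58199406-58199555 on the plus strand.
Isg15: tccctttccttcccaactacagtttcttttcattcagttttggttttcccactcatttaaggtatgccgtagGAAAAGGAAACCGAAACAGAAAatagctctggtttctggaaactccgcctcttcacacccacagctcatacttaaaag
Ifit1: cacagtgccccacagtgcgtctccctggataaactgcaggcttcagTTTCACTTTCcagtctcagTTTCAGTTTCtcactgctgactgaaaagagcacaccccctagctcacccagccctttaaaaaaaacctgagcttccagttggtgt
Rsad2: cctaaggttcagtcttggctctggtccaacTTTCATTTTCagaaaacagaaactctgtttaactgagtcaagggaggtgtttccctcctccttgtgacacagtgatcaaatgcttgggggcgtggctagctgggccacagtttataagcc
Igtp: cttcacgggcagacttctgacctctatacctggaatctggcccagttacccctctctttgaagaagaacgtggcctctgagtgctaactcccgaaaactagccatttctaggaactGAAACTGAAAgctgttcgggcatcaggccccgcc
Isg15 holds 3 overlapping matches that begin 78, 72 and 66 bases before the start, Ifit1 holds 2 matches, and Rsad2 and Igtp hold 1 each. The motif is in 3.44% of all windows. It was in 14 of 27 interferon-stimulated genes with a window (51.9%), in 9 of 9 GTPase genes and in 5 of 18 class I presentation genes. It was in 0 of 5 scaffold, 0 of 14 glycosylation, 0 of 11 surface and 0 of 9 adhesion genes, and in 2 of 10 chemokine genes, Ccl19 and Cxcl10. The letters were not in the window of Irf7.

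Antigen presentation genes of class I were higher in part. Of 20 genes past the filter, 6 were at least 1.5-fold higher and 0 at least 1.5-fold lower, with a median log2 fold of 0.35. The non-classical genes H2-T23 and H2-Q4 had the largest factors, 2.72 and 2.39, from levels of 299 and 813 CPM for H2-T23 and 113 and 269.6 CPM for H2-Q4. Psmb8, an immunoproteasome subunit gene, stood at 315 and 549.8 CPM, and the classical H2-D1 at 1987 and 3139 CPM, while the classical H2-K1 stood at 5430 and 4645 CPM. Class I heavy chain genes are similar in sequence, so reads may be split among them. Of class II genes there were 0 higher and 0 lower of 5, with Cd74, the invariant chain gene, at 343 and 411 CPM.

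Most of the complement genes measured were higher in SAH. Of 12 genes past the filter, 8 were at least 1.5-fold higher and 0 at least 1.5-fold lower, with a median log2 fold of 1.07. Clu, which encodes the inhibitor clusterin, stood at 2555 CPM in sham and 5242 CPM in SAH, a factor of 2.05 [2.02, 2.09], and C3, the central component, at 147 and 437 CPM, a factor of 2.97 [2.78, 3.17]. C4b stood at 25.5 and 97.8 CPM and C2 had a factor of 3.57, and both belong to the classical pathway. Other blood endothelium had a median log2 fold of 0.97 over the same 12 genes. Fibroblastic cells held C3 at 6193 and 7711 CPM, and the summed fibroblastic markers in HEV cells were 527 and 1043 CPM. In HEV cells without markers of leukocytes, fibroblastic or mural cells the log2 fold of C3 was 2.50 in place of 1.57. Without called doublets the median of the list was 0.60, and Serping1, the C1 inhibitor gene, had a log2 fold of 0.58 in place of 1.16.

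Acute phase genes differed by large factors in some members. Of 7 genes past the filter, 3 were at least 1.5-fold higher and 0 at least 1.5-fold lower, with a median log2 fold of 0.20. Lcn2, a lipocalin that withholds iron from bacteria, stood at 11.2 CPM in sham and 197 CPM in SAH, a factor of 17.6 [14.2, 21.99], against 3.696 in other blood endothelium. It was seen in 54 and 319 HEV cells, and with 3 or more UMIs in 6 and 124. Lymphatic cells held Lcn2 at 241 and 519.9 CPM, and the log2 fold in thinned HEV cells was 3.05 in place of 4.13. Saa3, a serum amyloid gene, stood at 1.76 and 116 CPM in HEV cells and at 166 and 3716 CPM in fibroblastic cells, and the part of free RNA in its difference was not tested. Its log2 fold in HEV cells was 6.04, 4.96 without called doublets and 3.99 in thinned cells. Saa3 was seen in 9 sham and 186 SAH HEV cells, and the 10 highest SAH cells held 61.7% of its UMIs there. Lrg1, a glycoprotein gene of activated venules that HEV cells express abundantly, stood at 3217 and 3699 CPM.

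Immediate early genes, which respond to tissue handling, had 0 higher and 3 lower of 23, with Fos at 1783 and 1776 CPM and Ctgf at a factor of 0.4902. Heat shock genes had 0 higher and 0 lower of 9, and secretory pathway and unfolded protein genes had 0 higher and 2 lower of 19 (Dnajb9 and Manf lower). Glucocorticoid response genes and metallothioneins had 0 higher and 0 lower of 9. The haem, iron and redox list, chosen because blood is shed in SAH, had 3 higher and 1 lower of 13, with Gstp1, Gstm1 and Aldh2 higher and Prdx1 lower. Gstp1 was higher in every class of cells, from 3.27-fold in venular cells to 6.05-fold in cells with 1 UMI of Fut7 and Chst4. Gstm1 and Aldh2 came under 1.5-fold without called doublets, and also without cells carrying markers of other cell types. Gstm1 did so in thinned cells too, and Prdx1 with the median-ratio factor.

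Cholesterol and sterol genes had 0 higher and 3 lower of 9, with Idi1, Insig1 and Ch25h lower and a median log2 fold of -0.39. Ch25h was counted among the surface genes too. In thinned cells Idi1, Insig1 and Ch25h each came under 1.5-fold. Cell cycle genes had 1 higher and 2 lower of 8 and a median of -0.35, and cells with any UMI of Mki67, Top2a or Cdk1 numbered 105 in sham and 76 in SAH. Matrix genes had 1 higher and 1 lower of 14, junction genes 0 higher and 1 lower of 13, and checkpoint genes 1 higher and 0 lower of 7 with Lgals9 higher. The mitochondrial genome had 2 higher and 0 lower of 13, with mt-Nd4l and mt-Atp8 higher. Its median log2 fold was nonetheless -0.17, and its genes summed to 48620 CPM in sham and 44040 CPM in SAH.

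**Figure D4:**
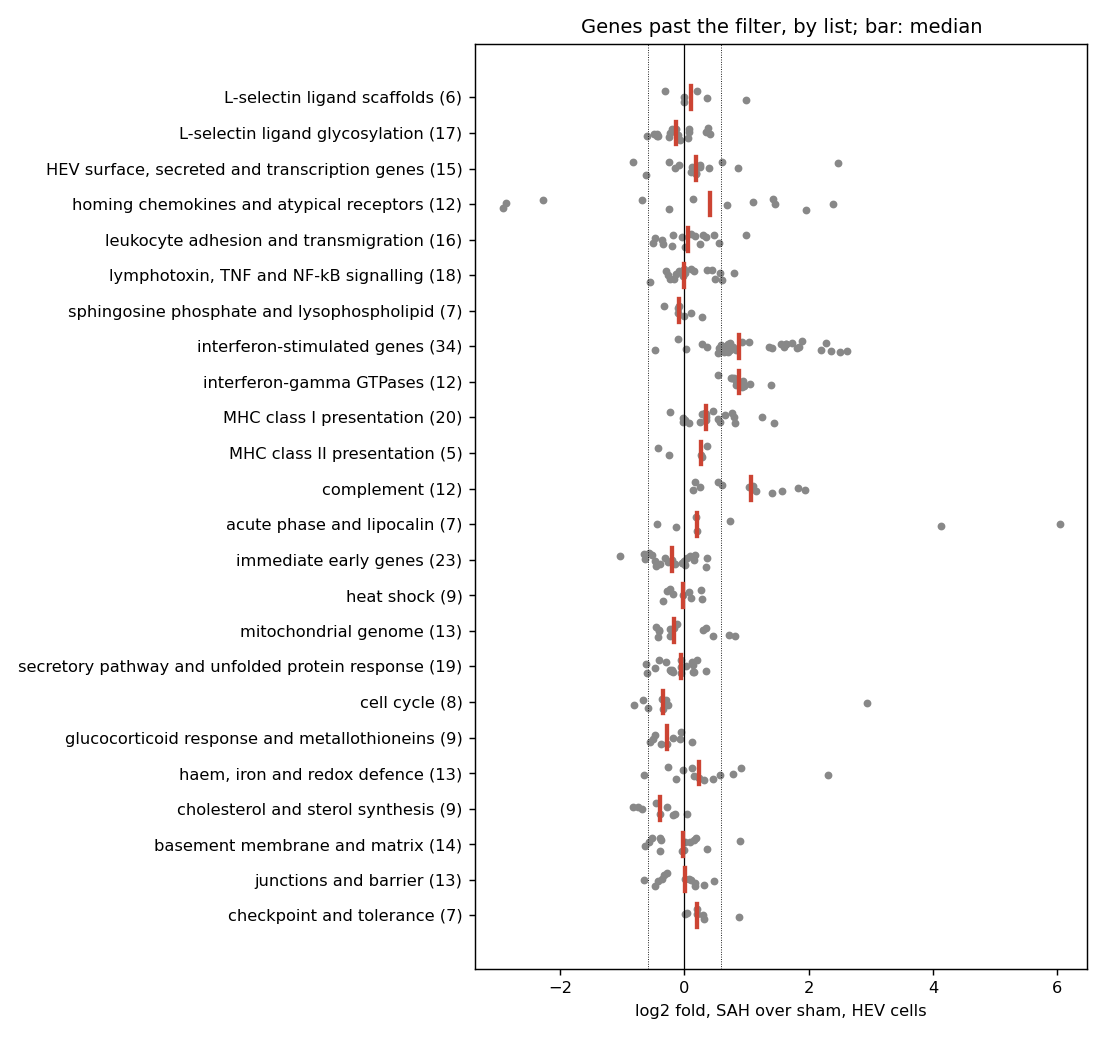
Log2 fold, SAH over sham, in HEV cells for the genes past the filter in each of 24 lists (grey points, number in parentheses), with the list's median as a red bar and dotted lines at 1.5-fold either way. The medians of the interferon-stimulated genes (0.88), the GTPases (0.88) and complement (1.07) lie past the right dotted line, and those of the other lists lie between the lines.

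Ranked by fold over all genes at 50 CPM or more, the 12 highest in SAH included Lcn2, Ccdc85b, Hist1h2ap, Irf7, Rsad2, Nr1d1, Cxcl9, Trim37, Gstp1, Ifit1 and Itih3. Several of these differed alike in other classes of cells. Ccdc85b was 9.67-fold higher in HEV cells and 7.67-fold higher in other blood endothelium, and Gstp1 4.96-fold and 4.09-fold. Nr1d1, a repressor of the circadian clock, stood at 17.1 and 89.99 CPM, a factor of 5.26 against 2.53 in other blood endothelium. Hist1h2ap, a histone gene, had 97.1% and 81.98% of its UMIs in 10 cells, and a log2 fold of 3.82 in place of 2.94 without cells carrying other markers. Itih3, which stabilises hyaluronan, stood at 17.4 and 55.1 CPM in HEV cells against 1.5997 and 4.86 CPM in other blood endothelium, with a log2 fold of 3.21 in thinned cells in place of 1.66. Saa3, Ifitm1 and Clca3a1 ranked as high but were over 10 times higher in fibroblastic or lymphatic cells and were set apart.

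The 12 lowest in SAH were Aplnr, Stra6, Hypk, Timp4, Tmem252, Lyve1, Mcam, Slc14a1, Cebpb, Hnrnpa0, Serpinb1a and Lpcat4. Aplnr, the apelin receptor gene of venous endothelium, stood at 69.2 CPM in sham and 22.2 CPM in SAH, a factor of 0.321 [0.27, 0.381], against 0.355 in other blood endothelium and 0.207 in venular cells. Stra6, a retinol-binding protein receptor gene, stood at 56.1 and 20.3 CPM, a factor of 0.361 against 0.671 in other blood endothelium. Serpinb1a, an inhibitor of neutrophil proteases, stood at 714 and 366 CPM, and Tmem252, a membrane protein gene, at 567 and 259.6 CPM, with a factor of 0.458 against 0.397 in other blood endothelium. Hypk and Hnrnpa0 were lower alike in the 7 classes, between 0.385-fold and 0.464-fold for Hypk and between 0.416-fold and 0.588-fold for Hnrnpa0. Among genes over 10 times higher in fibroblastic cells or leukocytes, which were ranked separately, the lowest were Col1a1 at a factor of 0.616, H2-Eb1 at 0.742 and Errfi1 at 0.821, smaller differences than those of the 12. The log2 fold of Col1a1 turned from -0.70 to 1.02 in thinned cells.

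Of the 15 genes highest over other blood endothelium, some were higher in SAH. Vwf stood at 99.4 CPM in sham and 224 CPM in SAH, a factor of 2.25 [2.07, 2.45] against 1.78 in other blood endothelium and 1.87 in venular cells, where its level was higher than in HEV cells. Ptgds, which encodes a prostaglandin D synthase, stood at 56.9 and 139 CPM, a factor of 2.45 [2.19, 2.74], and Bpifb5, a gene of the BPI fold family, at 51.5 and 103 CPM, a factor of 2.004 [1.78, 2.26]. In thinned cells the log2 fold of Bpifb5 was 0.57, under the 1.5-fold line.

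HEV cells varied widely among themselves in Glycam1. The level per cell ran from 0 over a median of 15010 CPM to 275300 CPM in sham, and from 0 over 19420 CPM to 417300 CPM in SAH, with 24 and 8 cells at 0. Cells were therefore split into quartiles of their Glycam1 level in each library, a split chosen after the data were seen, and other genes were measured as CPM with Glycam1 left out of the total. From the lowest to the highest quartile the median UMIs per cell went from 7630 to 11865 in sham, and the median of Fut7 and Chst4 together from 3 to 9 UMIs, so depth and the rule's genes move with the split. Of 2670 genes ranked, 74 were at least 2-fold higher and 61 at least 2-fold lower in the top quartile in both libraries.

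Ccl21a and some other HEV genes were higher in Glycam1-rich cells, and others were not. From the lowest to the highest quartile Ccl21a went from 3077 to 15790 CPM in sham and from 4430 to 23550 CPM in SAH. Serpina1e went from 202 to 1792 CPM in sham, and Ptgds from 1.72 to 133 CPM in sham and from 15.03 to 251 CPM in SAH. Madcam1 headed the ranking, from 0.572 to 57.9 CPM in sham and from 3.01 to 101 CPM in SAH. Cxcl9 went the other way, from 74.4 to 43.8 CPM in sham and from 533 to 228 CPM in SAH. Enpp2 was higher in the top quartile in sham, from 2214 to 3157 CPM, and nearly level in SAH, from 2909 to 3020 CPM. In cells thinned to 2000 UMIs the rank correlation of Glycam1 with Ccl21a was 0.53 over 751 sham cells and 0.54 over 815 SAH cells, and that with Serpina1e 0.45 and 0.39. Cells of 1 library share its free RNA, and these values are a description.

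The genes that ran against Glycam1 were led by Aplnr, Serpine2, Fabp4, Slc14a1 and Fabp5. Aplnr went from 210 to 3.89 CPM in sham and from 72.2 to 2.26 CPM in SAH. Fabp4, a fatty acid carrier of capillaries and veins, went from 1402 to 196 CPM and from 1817 to 194 CPM. Podxl, itself a scaffold, was among them, from 208 to 40.9 CPM and from 221 to 50.6 CPM. Irf7 was lower in Glycam1-rich cells, from 92.1 to 36.99 CPM in sham and from 517 to 247 CPM in SAH, yet its SAH over sham factor was 5.61 in the lowest and 6.67 in the highest quartile. The higher Irf7 of SAH was thus present at both ends of the Glycam1 range.

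The differences of several genes between the libraries were unlike across that range. Lcn2 was higher in SAH throughout, by a factor of 48.6 [20.5, 150.9] in the lowest quartile, from 2.86 CPM in sham. In the highest quartile its factor was 6.66 [5.03, 8.98]. Ptgds had factors of 8.76 [2.67, 45.3] and 1.88 [1.62, 2.18] in the same quartiles. Timp4, a metalloproteinase inhibitor gene, went from 6.87 to 745 CPM across the quartiles in sham and from 18.04 to 242 CPM in SAH, so that SAH over sham was 2.63 [1.31, 5.64] in the lowest and 0.324 in the highest quartile. Tagln, an actin-binding protein gene of mural cells, went from 35.5 to 1109 CPM and from 51.1 to 381 CPM, with factors of 1.44 [1.03, 2.03] and 0.344. Lyve1, a hyaluronan receptor gene of lymphatics, went from 8.01 to 188 CPM and from 15.6 to 56.02 CPM, with factors of 1.95 [0.982, 4.04] and 0.297. In the lowest quartile Timp4 and Tagln were higher in SAH by more than counting error, while the Lyve1 interval includes 1, and SAH was lower from the second quartile for Timp4 and Lyve1. The quartiles were cut in each library, and the lowest ended at 1237 CPM of Glycam1 in sham and 2055 CPM in SAH. These 3 genes rise with Glycam1, and the part of the unlike cuts in their factors was not tested.

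**Figure D5:**
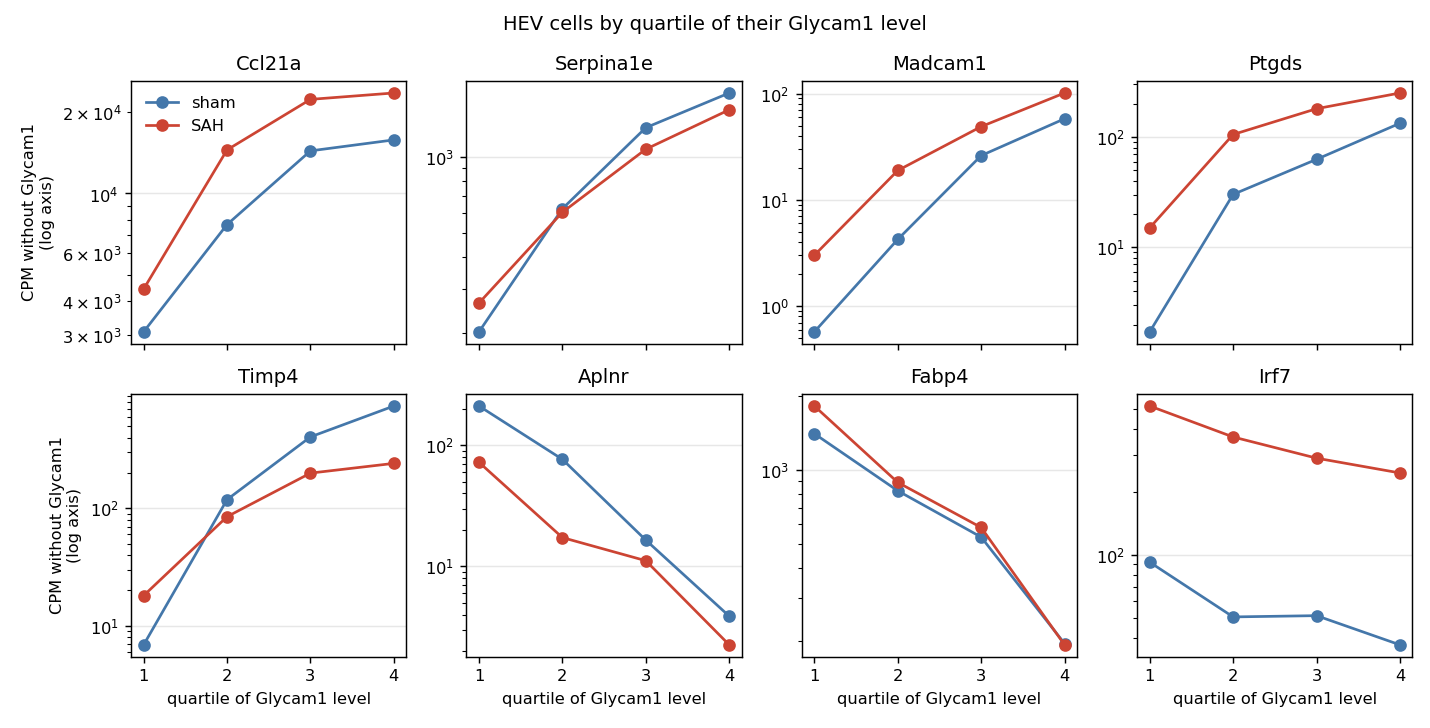
Level in CPM with Glycam1 left out of the total (log axes) of 8 genes in HEV cells by quartile of their Glycam1 level, blue sham and red SAH. Ccl21a, Serpina1e, Madcam1, Ptgds and Timp4 are higher and Aplnr, Fabp4 and Irf7 lower in the top than in the lowest quartile, and for Timp4 SAH lies above sham in the lowest quartile and below it in the others.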

How the data were processed

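Cells of 2 pooled node suspensions, 1 sham and 1 SAH, were captured and tagged at the 5′ end, per the labels' protocols. The deposited matrices hold counts of UMIs per gene and barcode, made by the authors with cellranger 5.0.0, per the file headers. The submitters' processing notes name Cell Ranger 5.0, STAR, the build mm10 and Seurat 3.0.2. Whether introns were counted, and the annotation release, are not given in the sources used here. The lowest barcodes held 502 and 501 UMIs.

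Counts were summed by symbol. Barcodes under 500 genes (774 and 623) or over 10% mitochondrial UMIs were left out, and classes were set by raw UMIs of marker genes. UMIs were summed per class and library and scaled to CPM. Genes at 20 CPM or more in 1 HEV sum were compared. Intervals of folds are exact conditional binomial ones, and those of shares Clopper-Pearson. The calculation of folds and their intervals was tested on simulated counts, and the thinning on an invented matrix. No p-value was computed. Doublets were called with Scrublet in scanpy 1.11.5 (expected rate 0.1) and kept. Python 3.11.15, numpy 2.4.6, scipy 1.17.1, pandas 2.3.3 and matplotlib 3.10.9 were used. Promoter windows are RefSeq's (GRCm38.p6) and gene positions GENCODE's, on GRCm38.

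Named genes were the HEV list members past the filter, the 2 to 4 most changed members of other lists, the 12 highest and 12 lowest folds at 50 CPM or more (setting apart genes over 10 times higher in lymphatic, fibroblastic or leukocyte cells) and the 15 highest over other blood endothelium. Some results are not reported here. Other genes named for contrast were chosen after their values were seen. Members and lists were chosen with earlier results of these data known. Alternatives removed doublets or cells with Ptprc, Cd3e, Cd79a, Pdgfra, Col1a2 or Rgs5, changed the mitochondrial limit, the Fut7 and Chst4 condition, the scaling or the filter, left Glycam1 out of the total, averaged cells, or thinned each cell to 2000 UMIs.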

Additional observations from a re-analysis of the deposited data

Results flagged for a closer look

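Of the 12 genes lowest in SAH HEV cells, 2 had the opposite direction in other blood endothelium. Timp4 had a log2 fold, SAH over sham, of -1.22 in HEV cells, from 319 and 137 CPM, and of 0.86 in other blood endothelium, from 34.7 and 62.95 CPM. Lyve1 had a log2 fold of -1.12 in HEV cells, from 87.2 and 40.1 CPM, and of 0.76 in other blood endothelium, from 31.8 and 53.8 CPM. Each class has 1 library per group, so the difference between the classes was not tested. Lymphatic cells held Lyve1 at 585 and 1002 CPM and Timp4 at 362 and 377 CPM, and the log2 fold of Lyve1 in HEV cells thinned to 2000 UMIs was -1.997.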

How the results depend on the processing

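Of 113 listed or ranked genes past 1.5-fold, 108 kept their direction in cells thinned to 2000 UMIs. Without HEV cells carrying markers of other cells 111 did, and under each other alternative all 113 did. Between 84 (thinned) and 113 remained past 1.5-fold. The value of 113 came from leaving out the filter, which cannot change a fold, and from leaving Glycam1 out of the total. The latter scales all genes of a library alike and kept all 24 list medians within 0.1. Genes higher in SAH numbered 823 in thinned cells and 1562 without the filter on low values, and genes lower 849, 964 and, with the median-ratio factor, 142. Lists with a median past 1.5-fold numbered 3, and 5 without the filter. Thinning gave medians of -0.024 for glycosylation, 0.081 for surface genes, -0.08 for adhesion, 0.73 for interferon-stimulated genes and 0.62 for GTPases. The chemokine median was 0.77 without doublets, 0.17 at 5% mitochondrial UMIs, 0.92 with Chst4 alone, 1.06 without cells carrying other markers, 0.63 as a mean of cells and 0.79 without the filter. That of sphingosine phosphate genes was 0.032 at 3 UMIs of Fut7 and Chst4 and 0.052 with Chst4 alone. Interferon-stimulated genes came to 0.98 without the filter, and GTPases to 1.00 without cells carrying other markers. Complement came to 0.60 without doublets, 0.94 at 5% mitochondrial UMIs, 0.78 at 3 UMIs, and 0.82 both without other markers and without the filter. The share in sham was 8.96% at 3 UMIs, 4.78% with Chst4 alone, 4.17% thinned and 6.76% of all kept barcodes; in SAH it was 10.8% at 5% mitochondrial UMIs, 10.1% at 3 UMIs, 11.04% with Fut7 alone, 5.74% with Chst4 alone, 6.07% thinned and 7.19% of all kept barcodes. Log2 folds that turned sign were Col1a1 (1.02 thinned, 0.030 without other markers), Ccl7 (0.069 without other markers) and, thinned, Dhx58 (-0.19), Eif2ak2 (-0.082), Gbp9 (-0.20) and Stmn1 (0.60). Thinning leaves 253 and 375 HEV cells at 2000 UMIs each, which limits genes of low level; the cause of the other shifts was not tested. No paired analysis was possible because each group is 1 library.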
